A study of Mus musculus with 11 samples.

Results

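Trigeminal ganglia of mouse embryos that carried 1 knockout allele of Pou4f1 were set against wild-type ganglia, to see what the loss of 1 allele does or does not change across genes. The comparison rests on 4 arrays of the Affymetrix type U74Av2, 2 of heterozygotes and 2 of wild-type embryos, out of 6 arrays of that type and 11 in the whole series. They were chosen by their labels, as numbers 1 and 2 of each genotype, and were compared within each number. Pou4f1 encodes Brn3a, and the groups are named in the labels as Brn3a Wildtype, Brn3a Heterozygote and Brn3a Knockout, all at embryonic day 13.5. The 2 knockout arrays of U74Av2 served as the reference for what the loss of both alleles does, and 5 arrays of a second type, U74Bv2, were used for Pou4f1 itself and for further probe sets of named genes. Each array held RNA pooled from 10 to 12 ganglia of 1 genotype, so single embryos cannot be told apart. The sources used here give neither the strain nor the extent of the deleted part of the gene.

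Brn3a is a POU-domain homeodomain transcription factor of sensory neurons. The trigeminal ganglion holds the neurons that sense touch, pain and temperature of the face, together with satellite and Schwann glia, and Brn3a is made in its neurons from the time they leave the cell cycle. Mice without Brn3a die at birth with disturbed sensory neurons, whereas heterozygotes survive, and Brn3a is known to regulate its own gene.

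The U74Av2 table held 12488 probe sets, each a group of short probes for 1 transcript or a few like ones. After 66 manufacturer's controls and the dim probe sets had been left out, 7453 probe sets remained, which stood for 5663 named genes. Of 10 markers of trigeminal sensory neurons, 8 were among them, and all 8 lay above the array's median in each of the 4 arrays, with signals from 1122 to 35465. The labels do not say what a replicate number marks. Arrays of the same number nevertheless resembled each other more than arrays of the same genotype did. The correlation of log2 signals was 0.965 between heterozygote and wild-type in number 1 and 0.975 in number 2, but 0.930 between the wild-type arrays and 0.933 between the heterozygote arrays. Over 2-fold apart were 2.13% and 1.41% of probe sets between the genotypes within a number, and 5.55% between the wild-type arrays. The U74Av2 differences below were therefore taken within numbers, with the number as a block in the fit, and p-values measure only the spread between these arrays, which may be technical.

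Pou4f1 was measured by 1 probe set on U74Bv2 and by 0 on U74Av2. The lone wild-type array read 3313, the heterozygote arrays 2196 and 3570, and the knockout arrays 550 and 904. The heterozygote arrays lay on either side of the wild-type array, and both knockout arrays lay below all others. Heterozygote minus wild-type was -0.24 ± 0.34 on the log2 scale (SE, limma adjusted p = 1.00), with a 95% interval from -1.01 to 0.53. That fit left out the number, whereas the lone wild-type array is a number 1 array. Against it the heterozygote number 1 array differed by -0.58. With the number as a block, an alternative chosen after seeing the data, the difference was -0.58 ± 0.22 (limma adjusted p = 0.729), with a 95% interval from -1.03 to -0.13. The size of the heterozygote difference in Pou4f1 thus depended on whether the number was taken into account, and neither fit called it. In such bulk samples, fewer cells of a type and less RNA per cell cannot be told apart.

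No U74Av2 probe set passed the test between heterozygote and wild-type ganglia in the main fit. Of 7453 probe sets, 0 were called at a limma adjusted p under 0.05 (0%), and 333 had an unadjusted p under 0.05 (4.47%), where 373 would be met by chance alone. Of those 333, 155 (2.08% of all tested) were higher and 178 (2.39%) lower in the heterozygote. The same fit called 130 probe sets (1.74%) between knockout and wild-type, of which 43 rose (0.577%) and 87 fell (1.17%), with 1076 at an unadjusted p under 0.05 (14.4%). Without the number as a block the count for the heterozygote was again 0, with 52 at an unadjusted p under 0.05 (0.698%). That for the knockout was 19 (0.255%). On U74Bv2 some probe sets were called for the heterozygote once the number was a block, an alternative chosen after seeing the data. On U74Av2 with the block, limma called Traip with a smaller pseudocount (adjusted p = 0.0475) or median centring (adjusted p = 0.0462). Leaving out wild-type array 1 or 2 gave 24 and 27 knockout calls, and leaving out knockout array 1 or 2 gave 71 and 67.

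The width of the intervals shows how closely a difference was measured. They are unadjusted 95% limits of single probe sets, so they do not give the size that a call over 7453 probe sets needed. The median standard error of a difference was 0.18 on the log2 scale, and the median 95% interval reached 0.42 to either side, a factor of 1.34. For 6865 probe sets (92.1%) the whole interval of heterozygote minus wild-type lay within 2-fold in either direction. For 3933 (52.8%) it lay within 1.5-fold. Without the block these counts were 5484 (73.6%) and 711 (9.54%). In 3 probe sets, those of Traip, Slc25a53 and Ift46, the interval lay wholly beyond 2-fold, against 44 for knockout minus wild-type. Even these 3 heterozygote differences were not called.

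The differences seen in number 1 hardly recurred in number 2. Across the 7453 probe sets, which are not independent replicates, heterozygote minus wild-type in number 1 correlated with that in number 2 at r = 0.014 (Spearman's rho 0.022), and 51.2% had the same sign in both. For knockout minus wild-type these values were r = 0.446, rho 0.328 and 60.8%. Differences over 2-fold were found in 159 probe sets in number 1 and 105 in number 2 of the heterozygote comparison. Only 10 of them (0.134% of all tested) were over 2-fold the same way in both numbers, 4 higher and 6 lower, and 8 were over 2-fold in opposite directions. In the knockout comparison 79 (1.06%) went over 2-fold the same way, 27 higher and 52 lower, and 5 in opposite directions.

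**Figure D1:**
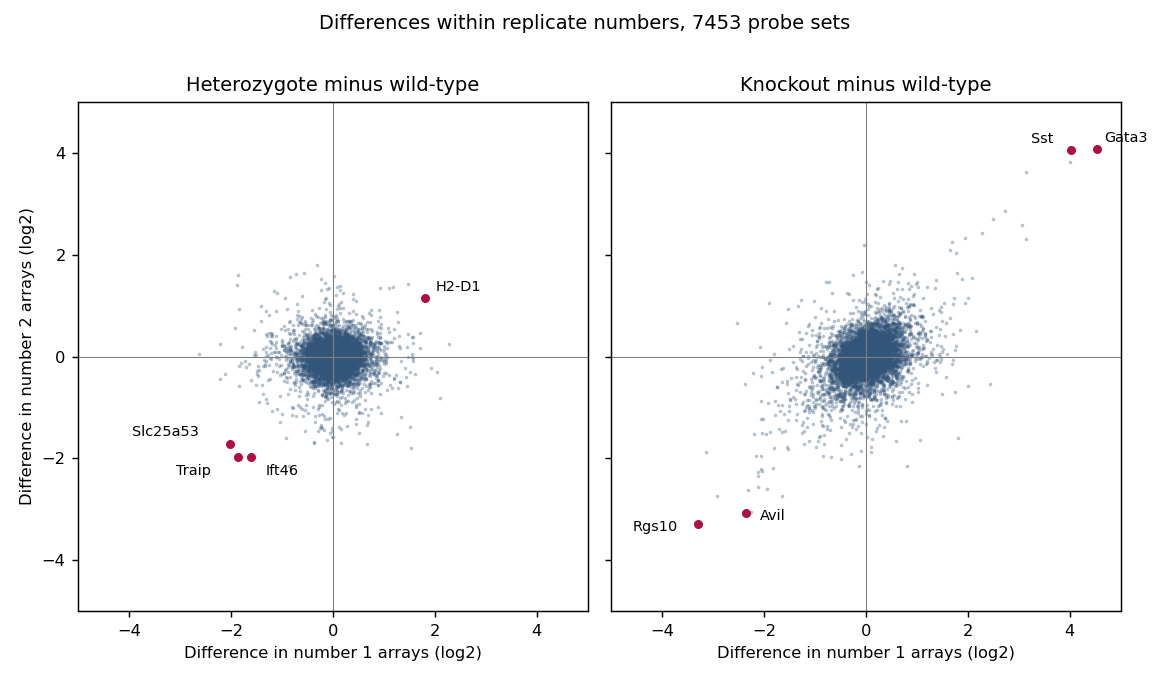
Log2 difference of each of the 7453 tested probe sets in the number 1 arrays (horizontal axis) and in the number 2 arrays (vertical axis), for heterozygote minus wild-type (left) and knockout minus wild-type (right), with named genes in red. The left cloud is round (r = 0.014) with 10 probe sets over 2-fold the same way in both numbers, whereas the right cloud has arms that reach Gata3, Sst, Rgs10 and Avil.

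Most probe sets called in knockout kept near wild-type signals in the heterozygote. For 126 of the 130 probe sets called in knockout (96.9%) the heterozygote lay nearer to wild-type than to knockout on the log2 scale, as it did for 59.3% of all probe sets tested. The heterozygote had gone a median of 6.92% of the log2 way from wild-type to knockout, with quartiles at -1.04% and 20.6%. Over all tested that median was 29.5%, where the median size of knockout minus wild-type was only 0.18. The median size of heterozygote minus wild-type was 0.14 in these probe sets and 0.13 over all tested, while the median size of knockout minus wild-type was 1.26. The same wild-type arrays enter both differences, so the 2 are not independent. Of the 130, 92 leaned toward the knockout and 38 away from it, against 4787 and 2666 of all 7453 tested. An unadjusted p under 0.05 between heterozygote and wild-type was met by 13 of the 130, against 4.47% of all tested. The adjusted threshold was passed by 0 (0% of all tested).

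The transcription factors that rise most when both alleles are lost lay nearer to wild-type than to knockout with 1 allele, some of them with wide intervals. Gata3, a zinc-finger factor, had signals of 61.1 and 85.2 in wild-type, 61.1 and 96.1 in heterozygote, and 2524 and 2236 in knockout arrays. Wild-type and heterozygote overlapped, and the knockout stood far above both. Heterozygote minus wild-type was 0.06 ± 0.21 (SE), with a 95% interval from -0.43 to 0.54, against 4.31 ± 0.21 for knockout minus wild-type. Tfap2b, an AP-2 factor of the neural crest, read 22.8 and 26.7 in wild-type, 98.6 and 28.1 in heterozygote, and 1115 and 1037 in knockout arrays. Its heterozygote difference of 0.53 ± 0.30 came from the number 1 array (1.03 there and 0.03 in number 2). Msc, a bHLH repressor, read 195 and 191, then 277 and 274, then 1578 and 1685. Both heterozygote arrays of Msc lay above both wild-type arrays, by 0.42 and 0.43 within the numbers (0.42 ± 0.15, 95% interval from 0.07 to 0.78, unadjusted p = 0.026, limma adjusted p = 0.986).

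Other factors of this kind had 95% intervals that included 0, but those of Six2 (-0.29 to 1.35) and Neurod4 (-1.32 to 0.39) were wide. The Neurod4 difference came from the number 2 arrays (0.12 in number 1 and -1.04 in number 2). Neurod4, a proneural bHLH factor, stood at -0.46 ± 0.36 in heterozygote minus wild-type, Zbtb16, a zinc-finger repressor, at -0.10 ± 0.25, and Six2, a homeodomain factor, at 0.53 ± 0.35. In knockout these rose by 2.14, 1.97 and 1.90. The Zbtb16 probe set is of a type shared between like transcripts.

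Neuropeptides, receptors and signalling genes that rise in knockout are given next. Somatostatin (Sst), an inhibitory neuropeptide, read 55.7 and 63.4 in wild-type, 69.3 and 85.0 in heterozygote, and 1662 and 1843 in knockout arrays. The heterozygote arrays lay above the wild-type ones but by 0.21 ± 0.19, about the size of the error, against 4.04 in knockout. Htr3a, a subunit of the serotonin-gated channel, read 1049 and 854, then 1129 and 1242, then 5244 and 4788, with a heterozygote difference of 0.31 ± 0.14. Calretinin (Calb2), a calcium-binding protein, read 165 and 56.8 in wild-type and 147 and 219 in heterozygote arrays, which overlap, against 1838 and 1265 in knockout. Vegfd, a growth factor of lymphatic vessels, read 17.0 and 37.6, then 103 and 62.9, then 508 and 478. Its heterozygote difference of 0.78 ± 0.29 (unadjusted p = 0.031, limma adjusted p = 0.986) was the largest among the 24 probe sets named for their change in knockout, at signals near the pseudocount. The small GTPase Rab3b stood at -0.03 ± 0.23 and connexin 43 (Gja1, read by a family probe set, one whose probes are shared with related transcripts) at -0.06 ± 0.15.

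The 12 genes that fell most in knockout lay nearer to wild-type in the heterozygote. Rgs10, a regulator of G-protein signalling, read 1088 and 1462 in wild-type, 1016 and 1177 in heterozygote, and 65.5 and 104 in knockout arrays. Its heterozygote difference was -0.20 ± 0.15, with a 95% interval from -0.55 to 0.16, whereas in knockout it fell by 3.30. Runx1, a Runt-domain factor of nociceptive neurons, read 742 and 720, then 721 and 740, then 126 and 149. The 4 arrays with at least 1 intact allele thus spanned 720 to 742, and the difference was -0.00 ± 0.16. Hmx1, a homeobox factor, read 612 and 682 in wild-type and 542 and 728 in heterozygote arrays, which overlap (-0.04 ± 0.18), against 102 and 94.3 in knockout.

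Effector genes of sensory neurons were among those that fell. Advillin (Avil), an actin-binding protein of sensory neurons, read 1455 and 2022, then 1407 and 1862, then 242 and 195 (heterozygote difference -0.08 ± 0.20). Galanin (Gal), a neuropeptide also called in knockout but not among the 12, read 4088 and 3816, then 3753 and 4093, then 938 and 952. Its heterozygote difference was -0.01 ± 0.13, with a 95% interval from -0.31 to 0.29. The neuropeptide PACAP (Adcyap1) stood at -0.13 ± 0.18 and the neuropeptide Y receptor Npy1r at -0.25 ± 0.42. The potassium channel Kcna1 was at -0.13 ± 0.21. Kcnab2, an accessory subunit of such channels, read 1019 and 1750 in wild-type, 827 and 1083 in heterozygote and 289 and 221 in knockout arrays. Its wild-type and heterozygote arrays overlapped (-0.48 ± 0.24, limma adjusted p = 0.986), and a family probe set of Kcnab2 that was also called in knockout stood at -0.10 ± 0.17. The homeobox gene Hoxd1 was called in knockout by a pair of probe sets. The brighter one stood at -0.07 ± 0.32. The other, of a type shared between like transcripts, read 418 and 922 in wild-type, 259 and 653 in heterozygote and 57.1 and 115 in knockout arrays. Its heterozygote lay below wild-type within each number, by -0.60 and -0.47 (-0.53 ± 0.20, 95% interval from -1.01 to -0.05, unadjusted p = 0.0335), and it was not called. Eepd1 (-0.07 ± 0.24), Bnc1 (-0.24 ± 0.21) and Rasa4, which restrains Ras (-0.23 ± 0.16), make up the rest of these 12 genes.

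In all 24 of these genes the heterozygote lay nearer to wild-type. In 22 of the 24 the 95% interval of heterozygote minus wild-type did not reach the log2 midpoint between the wild-type and knockout means. Vegfd and Six2 were the exceptions. The 24 were picked for large knockout differences in these same arrays, which can place that midpoint too far from wild-type. It was also taken as fixed. A contrast against the midpoint, given below, called 3 of the 24, against 0.107% of all tested. For a gene that falls, the midpoint of the linear signals lies nearer to wild-type than the log2 midpoint. The intervals were not set against it. On the linear scale Kcnab2 had gone 38.0% of the way to knockout, against 21.7% in log2, and Bnc1 21.4% against 10.4%. For genes that rose the linear share was the smaller in size, as in Six2 (17.6% against 27.9%).

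**Figure D2:**
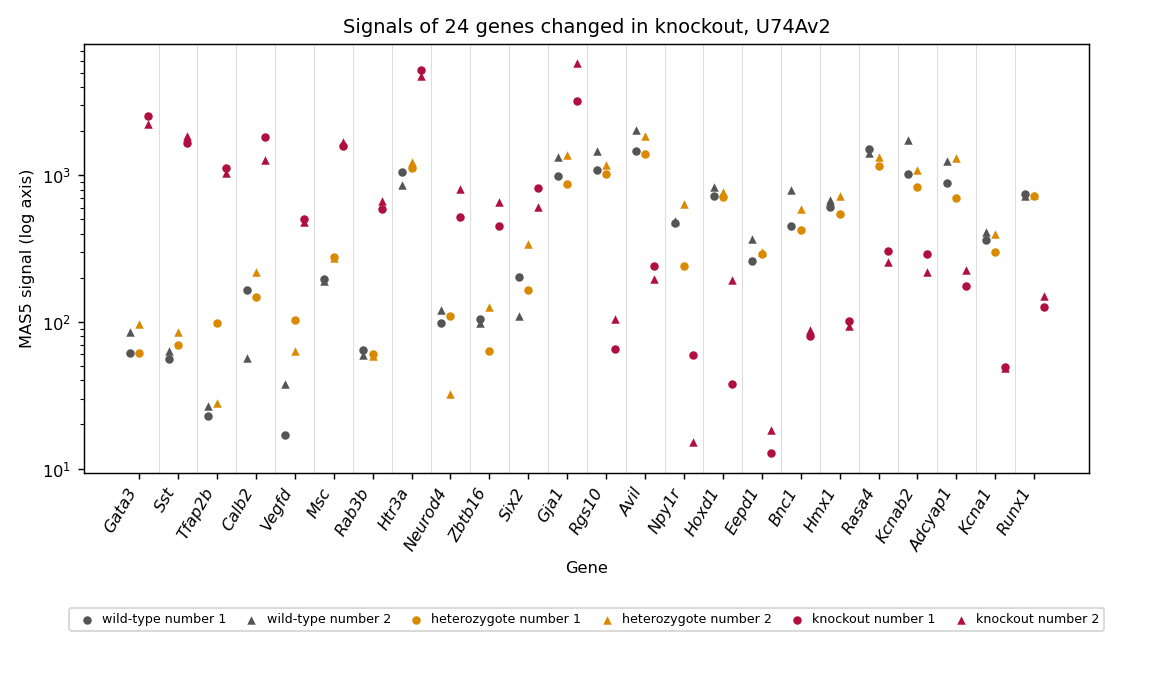
MAS5 signal (log axis) of the 24 genes named for a change in knockout, 12 that rose most and 12 that fell most, on each of the 6 U74Av2 arrays, with colour for genotype and shape for replicate number. On average the heterozygote points lie nearer to the wild-type than to the knockout points, for example at 721 and 740 beside 742 and 720 for Runx1.

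A contrast that does not share its error with knockout minus wild-type asks whether the heterozygote lies at the log2 midpoint of both homozygous genotypes. It called 8 of 7453 probe sets (0.107%), 4 above and 4 below the midpoint, by limma with the block. In 5 of these the heterozygote overlapped with wild-type or lay close to it while the knockout stood apart, namely Gata3 (-2.10 from the midpoint, adjusted p = 0.0138), Sst (-1.81), Gal (0.99, adjusted p = 0.0345) and both tested Rgs10 probe sets (1.45, and 1.43 for one of a family type). In the other 3 the heterozygote lay outside the range of both other genotypes. Fxyd7, a regulator of the sodium pump, read 1637 and 1533 in wild-type, 2343 and 2074 in heterozygote and 729 and 720 in knockout arrays, so that the heterozygote arrays were the highest (heterozygote minus wild-type 0.46 ± 0.13, adjusted p = 0.986). Traip and Slc25a53, described below, were the others. All 8 calls were lost without the block, when dim probe sets were kept, and without either wild-type or either heterozygote array. Without knockout array 1, 3 calls were made.

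Genes were also picked on the other array type, which has a lone wild-type array. Of 90 genes called in knockout against wild-type on U74Bv2, 19 had a tested probe set on U74Av2. Of the 19 genes, 11 were already among those called in knockout on U74Av2, as 1.74% of all tested probe sets were. Between heterozygote and wild-type on U74Av2, 1 of the 19 had an unadjusted p under 0.05, as 4.47% of all tested had. That gene was Ctnnbip1, an inhibitor of Wnt signalling (-0.33 ± 0.13 in heterozygote and -0.07 in knockout). Between heterozygote and wild-type 0 of the 19 were called (0% of all tested). Not all of the 19 differed in knockout on U74Av2, with Gbf1 at -0.03 and Cnot2 at 0.09. Neurod1, another proneural factor, stood at -0.16 ± 0.19 in heterozygote and 1.28 in knockout, and Celf4, an RNA-binding protein of neurons, at 0.12 ± 0.14 and 1.28. The sources used here do not say whether both array types were given the same RNA pools.

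For 4 of the 130 probe sets the heterozygote lay nearer to the knockout, those of Ndfip2, Sstr2, Tuba1c and Psmb5, which were singled out after their values had been seen. Ndfip2, an adaptor of ubiquitin ligases, read 494 and 674 in wild-type, 274 and 410 in heterozygote, and 217 and 321 in knockout arrays, from a probe set of relaxed design. Both heterozygote arrays lay below both wild-type arrays, by -0.75 and -0.66 within the numbers. Its heterozygote difference was -0.70 ± 0.16 (unadjusted p = 0.00286, limma adjusted p = 0.986) and its knockout difference -0.995 (adjusted p = 0.0320). The knockout call was lost without the block (adjusted p = 0.639), without the filter (0.0995) and without the intensity trend (0.0570).

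Sstr2, a somatostatin receptor, read 235 and 208, then 390 and 346, then 469 and 480, in a probe set of a type shared between like transcripts. Its heterozygote difference was 0.62 ± 0.17 (unadjusted p = 0.00724, limma adjusted p = 0.986) against 0.95 in knockout. Further Sstr2 probe sets read 195 and 200, then 223 and 240, then 311 and 384, and, in a relaxed design, 195 and 149, then 272 and 183, then 390 and 341. In all 3 the heterozygote lay between the other genotypes within each number, with differences from wild-type of 0.19 and 0.31 in the latter pair. Their probes were made for the same transcript and hybridised to the same RNA. Psmb5, a proteasome subunit, stood at -0.40 ± 0.13 in a probe set that matches several transcripts, but another Psmb5 probe set went the opposite way, with 342 and 363 in wild-type, 421 and 479 in heterozygote and 591 and 552 in knockout arrays.

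Ndfip2 is also a neighbour of Pou4f1. In the gene order of RefSeq's assembly GRCm38.p6 it is the first measured gene on one side, with 10 unmeasured gene models between, and Ednrb, an endothelin receptor, is the first on the other, with 8 between. Of the 20 nearest measured genes, 10 on each side, the heterozygote difference ran from -0.70 for Ndfip2 to 0.27 for Tsc22d1, with the next lowest at -0.36 (Tgds) and a median of -0.09. The interval stayed within 2-fold for 19 of the 20. Lower in both numbers were 8 of the 20 (40%, against 25.7% of all tested probe sets) and higher in both were 2 (10%, against 25.6%). Ednrb stood at -0.12 ± 0.15 in heterozygote and 0.51 ± 0.15 in knockout, neither of them called. Ndfip2 was the 1 neighbour called in knockout, as 1.74% of all tested were.

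**Figure D3:**
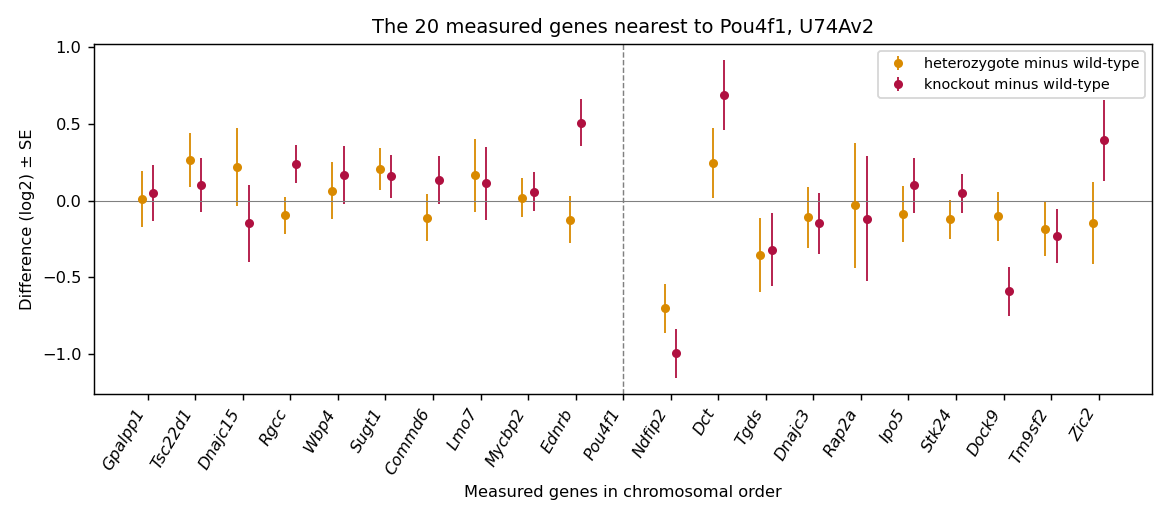
Log2 difference from wild-type (± SE) of heterozygote and knockout for the 20 measured genes nearest to Pou4f1, in chromosomal order, with Pou4f1 itself at the dashed line. Ndfip2, next to the line, is the lowest in both, at -0.70 and -0.995, while the other heterozygote values lie between -0.36 and 0.27.

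The largest single differences of the heterozygote are given as values, since none passed. With an unadjusted p under 0.01 and the same sign in both numbers there were 50 genes, 22 higher and 28 lower, and the 10 largest each way are described. Of these 20 genes, 1 (Tuba1c) was also called in knockout, as 1.74% of all tested probe sets were. Traip, an E3 ubiquitin ligase of DNA repair, came nearest to the threshold, with 576 and 560 in wild-type, 121 and 106 in heterozygote, and 494 and 418 in knockout arrays. The heterozygote arrays stood well below all 4 others. The difference was -1.92 ± 0.17, with a 95% interval from -2.32 to -1.52 and a limma adjusted p of 0.0534. That p was 0.437 without the block and 0.0475 with a smaller pseudocount. A second Traip probe set was dim and untested, with 139 and 104 in wild-type and 137 and 41.0 in heterozygote arrays.

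Slc25a53, of the mitochondrial carrier family, read 487 and 274, then 81.9 and 49.0, then 475 and 309. Here too the heterozygote arrays were the lowest, at -1.87 ± 0.20 from wild-type (limma adjusted p = 0.102), while the knockout was at 0.06. Ift46, of intraflagellar transport, read 2038 and 440, then 634 and 74.4, then 1443 and 71.4, so that the number 2 arrays of heterozygote and knockout were alike. Its difference was -1.79 ± 0.33, but another Ift46 probe set read 1094 and 744 in wild-type and 1103 and 738 in heterozygote arrays.

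The small Maf factor Mafk read 282 and 245, then 112 and 70.7, then 456 and 293 (-1.16 ± 0.21). The pseudouridine synthase Pus1 read 1010 and 644, then 415 and 282, then 603 and 612 (-1.13 ± 0.19). In both, the heterozygote arrays lay below all others. The remaining lower values were those of AI506816 (-1.51), Mob2, a kinase activator (-1.26, relaxed design), the folding sensor Uggt1 (-1.21), Rps4x (-1.17, relaxed design) and the Raf kinase Araf (-1.08). On a bright standard probe set Rps4x, a ribosomal protein, was at 0.19, with 13608 and 14425 in wild-type and 16184 and 15694 in heterozygote arrays.

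On the higher side stood H2-D1, a class I histocompatibility antigen, with 65.2 and 112 in wild-type, 354 and 307 in heterozygote and 197 and 112 in knockout arrays. The heterozygote arrays were the highest, by 1.47 ± 0.30 (limma adjusted p = 0.986), in a family probe set, and a second, brighter family probe set differed by 0.18. Tcf25 differed by 1.22 ± 0.31, but a brighter Tcf25 probe set read 426 and 323 in wild-type and 414 and 316 in heterozygote arrays. The retinoic acid binding protein Crabp1 read 489 and 801, then 1096 and 1203, then 665 and 859 (0.82 ± 0.17). The ubiquitin ligase Wwp2 read 453 and 449, then 768 and 856, then 734 and 746 (0.78 ± 0.14), and its other probe sets differed by 0.06 and, on U74Bv2, 0.18. Dab1, the Reelin adaptor, read 99.4 and 131, then 239 and 233, then 312 and 299 (0.80 ± 0.21), in a probe set that matches several transcripts.

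The other higher values were 0.98 for Tuba1a, 0.87 for the odorant receptor Olfr70, 0.85 for the myosin Myo1f, 0.79 for Tuba1c and 0.78 for Taf1d. For 14 of the 20 genes 27 further probe sets were found on either array type, and 12 of the 27 had the same sign as the named one. Among the 15 of them bright enough to be tested, 8 did.

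**Figure D4:**
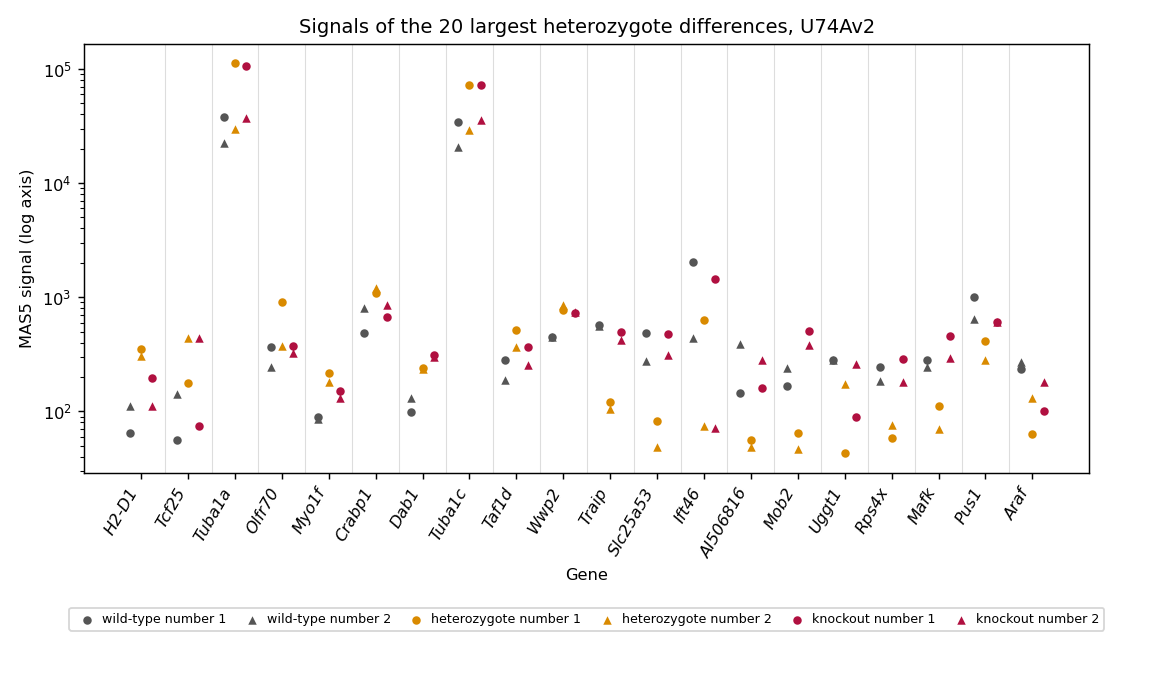
MAS5 signal (log axis) of the 10 largest higher and 10 largest lower heterozygote differences at an unadjusted p under 0.01, on each of the 6 U74Av2 arrays. For Traip the heterozygote points (121 and 106) lie below all wild-type and knockout points, whereas for Tuba1a they span from 29627 to 111479.

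The brightest probe sets leaned upward in the heterozygote. Of the 75 brightest tested, 1% of the whole, 68 (90.7%) were higher in both numbers, against 25.6% of all tested. Their median difference was 0.38 in number 1, 0.21 in number 2 and 0.28 in the fit. Knockout minus wild-type had medians of 0.37 and 0.34 in the same probe sets. After quantile normalization, which gives every array the same distribution of signals, the median of the 75 was 0.02 and 43 of them were positive. In number 1 the bacterial spike-in controls stood 4.07-fold and 18S ribosomal RNA 1.30-fold higher in heterozygote than in wild-type, and in number 2 1.18-fold and 1.01-fold. The ratio of the 3' to the 5' actin control, which rises as RNA is degraded, was 1.08 in wild-type and 1.31 in heterozygote in number 1, and 1.14 and 1.23 in number 2. That of Gapdh was 0.935 and 0.972, then 0.872 and 0.907. Their part in the shift was not tested.

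Tubulins of the neuronal cytoskeleton were among the brightest probe sets. Of 15 tubulin probe sets 12 were higher in both numbers, where 25.6% of all tested were. Their median was 0.26, and 8 of the 15 were among the 75 brightest. Tuba1a read 37595 and 22610 in wild-type, 111479 and 29627 in heterozygote, and 105495 and 36862 in knockout arrays, from an incomplete probe set. Its wild-type and heterozygote arrays overlapped across numbers, and the difference of 0.98 ± 0.26 became -0.08 after quantile normalization. The neuronal tubulin Tubb3 (0.54 ± 0.16, family probe set) and Tubb5 (0.56 ± 0.14, relaxed design) lay higher in both numbers as deposited, and stood at 0.13 and 0.10 after quantile normalization. Tuba1c likewise went from 0.79 to 0.08. The median of the 15 was 0.08 on that scale, with 9 positive.

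**Figure D5:**
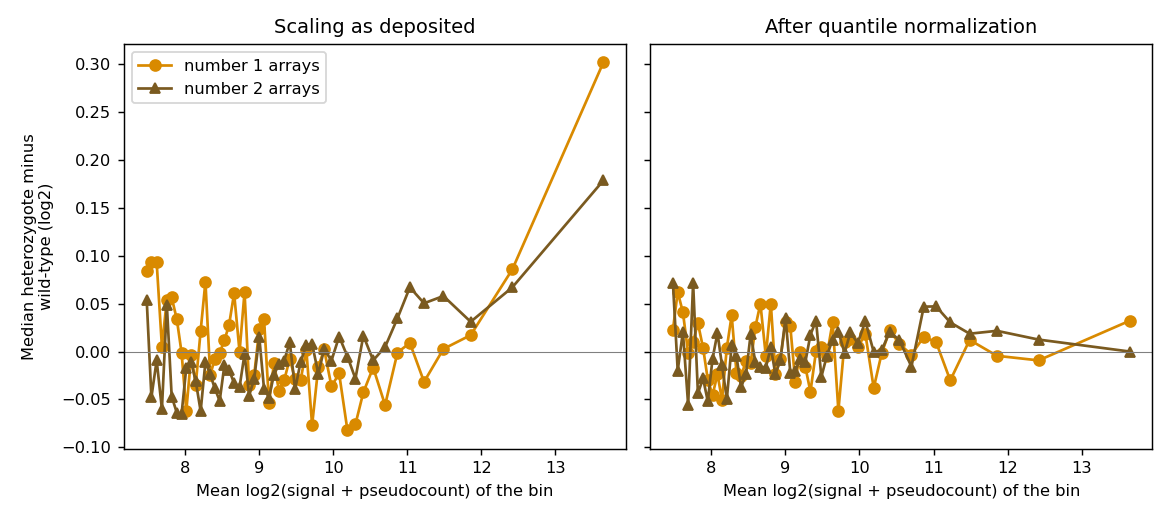
Median heterozygote minus wild-type (log2) of 50 bins of tested probe sets ordered by mean log2 signal, within number 1 and number 2, with the deposited scaling (left) and after quantile normalization (right). With the deposited scaling the brightest bin stands at 0.30 and 0.18, and after quantile normalization at 0.03 and 0.00.

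Gene lists were described by their medians and counts. The lists and their members were chosen with earlier results of these data known. Their counts of knockout calls are therefore no test against the share of all tested. Of 27 lists with at least 5 measured genes, 19 had a median heterozygote difference within 0.1 of 0, where the median over all probe sets was -0.01, and the medians ran from -0.14 to 0.26. Among the lists of neuronal function, those outside 0.1 were neuropeptides and granins (0.12), the neuronal cytoskeleton (0.14) and calcium-binding proteins (0.16). No member of any list was called between heterozygote and wild-type (0% of all tested, 4.47% at an unadjusted p under 0.05). Of 22 sensory neuron transcription factors, 4 rose (0.577% of all tested) and 2 fell (1.17%) in knockout, whereas in heterozygote 0 were higher and 1 lower at an unadjusted p under 0.05, Eya1 (-0.32 ± 0.13). Their median was -0.05, and the brightest, Sox11, Isl1 and Ebf3, stood at -0.07, 0.07 and 0.00. Of 22 neurogenic bHLH and Notch pathway genes only Msc had an unadjusted p under 0.05 (median -0.04, with Id2 at -0.08, Id4 at 0.23 and Tcf12 at -0.29). Among 12 Hox genes this held for Hoxc5 (0.57 ± 0.23), with 131 and 94.1 in wild-type and 219 and 165 in heterozygote arrays (list median 0.04). The POU-domain factors Pou6f1 and Pou2f3 stood at -0.01 and 0.20.

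Genes of excitability and transmission came next. Of 21 voltage-gated and sensory channels, 1 rose and 3 fell in knockout, where 0.577% and 1.17% of all tested did. In heterozygote Hcn2, a pacemaker channel, was the 1 of 21 with an unadjusted p under 0.05, as 4.47% of all tested had (-0.45 ± 0.17, relaxed design, -0.13 in number 1 and -0.77 in number 2). Of 23 synaptic vesicle genes it was also 1, Nsf, which takes fusion complexes apart (-0.88 ± 0.33), with a signal of 141 in heterozygote number 2 against 565 in number 1. The medians of these lists were 0.09 and 0.10, and the bright members Sncg, Vamp2 and Dnm1 stood at 0.12, -0.04 and 0.15.

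Of 14 neuropeptides and granins, the opioid precursor Pdyn was higher, with 171 and 148 in wild-type, 321 and 239 in heterozygote and 326 and 293 in knockout arrays (0.65 ± 0.19, limma adjusted p = 0.986). Both heterozygote arrays of Pdyn lay above both wild-type arrays. Scg5, a chaperone of prohormone convertase, was at -0.47. Among 10 calcium-binding proteins Hpca, a neuronal calcium sensor, read 271 and 336, then 410 and 513, then 440 and 581 (0.53 ± 0.15), and parvalbumin (Pvalb, incomplete probe set) was at 0.53 ± 0.20. Of 10 neurotrophin, GDNF and cytokine receptors 0 had an unadjusted p under 0.05, against 4.47% of all tested (list median -0.04). Gfra3, a receptor for artemin, was at 0.21 ± 0.14.

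Axon guidance and adhesion genes had a median of 0.08 over 29 members. Efnb2, a ligand of Eph receptors, was lower, with 808 and 1510 in wild-type, 472 and 1057 in heterozygote and 741 and 1387 in knockout arrays. Within each number the heterozygote was the lowest (-0.61 ± 0.14, unadjusted p = 0.00307, limma adjusted p = 0.986). The semaphorins Sema7a (0.64) and Sema6c (0.40) were higher, and the bright members Ncam1, Nrp1 and Sema4f were at 0.10, 0.08 and -0.10. Of 39 neuronal cytoskeleton genes 6 were higher at an unadjusted p under 0.05, as 2.08% of all tested were. These were Tuba1a, Tubb5, Tubb3, Basp1, Stmn1 and Crmp1. The list median of 0.14 became 0.03 after quantile normalization, where Basp1, a growth cone protein, turned to -0.08, Stmn1, which destabilises microtubules, to -0.02, and Crmp1, of semaphorin signalling, stayed at 0.24.

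Lists of cell state followed. The 43 genes of DNA replication and mitosis had a median of -0.08 in heterozygote and of 0.34 in knockout. In heterozygote 6 were higher in both numbers (14.0%, against 25.6% of all tested) and 16 lower (37.2%, against 25.7%). The bright members Cdk4, Bub3 and Ccnb2 stood at -0.01, -0.12 and -0.19, and Ccne1, a cyclin of S phase entry, at 0.53 ± 0.15. None of 18 apoptosis regulators had an unadjusted p under 0.05 by limma, against 4.47% of all tested. Their intervals all stayed within 2-fold, as 92.1% of all tested did (list median -0.03). The 12 p53 targets had a median of 0.01, with Btg1 at -0.43 and Plk3 (relaxed design) at 0.46, and the 42 genes of the respiratory chain 0.04. The 26 immediate early and heat shock genes had a median of 0.05, which became -0.02 after quantile normalization. The 23 ribosomal protein genes had one of 0.15, which became 0.00, and the brightest, Rpl41 (family probe set), went from 0.64 to 0.04.

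Markers of other cells gave no difference that passed. At an unadjusted p under 0.05 stood 0 of 18 Schwann and satellite glia markers (median -0.02), 0 of 29 of mesenchyme (0.04), 0 of 15 of endothelium (-0.14), 0 of 11 of macrophages (-0.06), 0 of 12 of skeletal muscle (0.08) and 0 of 7 of cartilage and bone (0.14). Over all tested the share was 4.47%, so lists this short would hold few or none. A count of 0 therefore does not show that a cell type was unchanged. The glial signals summed to 24823 and 28854 in wild-type and 28360 and 29864 in heterozygote arrays. The glial factor Sox10 was at -0.04 and the fatty acid binding protein Fabp7 at 0.31. Of 12 red blood cell genes the embryonic globin Hbb-y (0.59 ± 0.17, family probe set) and Hba-a1 (0.34 ± 0.13) were higher, but stood at 0.19 and 0.06 after quantile normalization, and the list summed to 58431 and 49689 in wild-type and 80792 and 56384 in heterozygote arrays. Of 9 central nervous system markers Pax5 was lower (-0.84 ± 0.27), from signals of 219 and 163 to 63.9 and 107. Smaller lists held 3 epithelial genes, with the keratin Krt17 (relaxed design) at -0.53, 4 of sympathetic neurons (median 0.20), 6 of lens, retina and inner ear (0.26) and 3 of melanocytes (-0.08).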

How the data were processed

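The deposited values are microarray intensities, 1 linear signal per probe set, which the authors computed with MAS5 (version not given in the sources used here), per the submitters' processing notes. All 6 U74Av2 arrays had a 2% trimmed mean of 500.26 to 500.29 and were not scaled again. No detection calls were used. The number of arrays limits the precision.

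The log2 of the signal plus a pseudocount was analysed, with pseudocounts of 50.0 (U74Av2) and 49.8 (U74Bv2), 0.1 of the mean trimmed mean, which understates the change of dim probe sets. Probe sets at or below the 40th percentile of mean log2 signal were left out. limma 3.58.1 (R 4.3.3) fitted genotype and replicate number to the 6 U74Av2 arrays (2 residual degrees of freedom, 3 without the number), with an intensity trend. Calls used a Benjamini-Hochberg adjusted p under 0.05 over all 7453 probe sets, two-sided. U74Bv2 was fitted without the number, and its lone wild-type array was assumed to vary like the others. The fit was tested on simulated data. Plots used Python 3.11.15 and matplotlib 3.10.9.

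The number was kept as a block because the comparison is defined within numbers. The deviations of same-numbered arrays from their genotype means correlated at 0.571 (wild-type and heterozygote), 0.619 (wild-type and knockout) and 0.533 (heterozygote and knockout). The labels do not say what the pairing stands for.

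Gene symbols came from the platform annotation, with Entrez identifiers matched to RefSeq genes of GRCm38.p6 for 10839 probe sets. Of the probe sets 10855 had 1 symbol, 396 several and 1237 none, and those with several were not named. Named were the 12 largest rises and falls among called genes, or, with fewer than 10 called, also the 10 largest each way at an unadjusted p under 0.01 with the same sign in both numbers. Pou4f1, its 20 nearest measured genes and called or the 3 brightest members of 30 gene lists were added. The members and lists were chosen with earlier results of these data known. Alternatives were the fit without the block, 4 arrays alone, a pseudocount of 0.02, no filter, quantile normalization, median centring, no trend, and leaving out each array.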

Additional observations from a re-analysis of the deposited data

Results flagged for a closer look

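Control probe sets differed between heterozygote and wild-type in the number 1 arrays. The 9 bacterial spike-in probe sets, which report RNA added to the sample and not tissue, had a geometric mean signal of 2460 in wild-type and 9999 in heterozygote number 1, a ratio of 4.07. In number 2 these were 1733 and 2037, a ratio of 1.18. The 3 probe sets for 18S ribosomal RNA stood at 5173 and 6745 in number 1, a ratio of 1.30, and at 511 and 518 in number 2.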

How the results depend on the processing

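For heterozygote against wild-type the count of 0 was also found without the replicate block, with 4 arrays alone, without the filter, with quantile normalization and without the trend. It was 1 (Traip) with a pseudocount of 0.02 (adjusted p = 0.0475) and with median centring (0.0462), and 0 to 2 when 1 array was left out. It was 2 (Ift46 and Traip) without knockout array 2. For knockout against wild-type, the count of 130 became 19 without the replicate block, 51 without the filter, 53 without the trend, and 24 to 154 when 1 array was left out, lowest without wild-type array 1 and highest without heterozygote array 2. The count of 8 against the midpoint became 0 without the block, 0 without the filter and 5 without the trend, and 0 to 7 when 1 array was left out. The share of intervals within 2-fold ran from 72.96% to 93.84%, the ends both being from fits that left out 1 array. On U74Bv2 the count for heterozygote against wild-type was 0, but 7 with the replicate block, and 0 to 10 when 1 array was left out, the 10 being without knockout array 1 (leaving out knockout array 2 gave 1, heterozygote array 2 gave 2). These U74Bv2 alternatives were chosen after seeing the data. Of single values, Tuba1a reversed, to -0.081 with quantile normalization. The causes were not tested.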

Other observations

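The sex-linked probe sets differed between the heterozygote pools. Xist, the RNA of the inactive X chromosome, read 1223 and 1336 in wild-type arrays, 1363 and 380 in those of heterozygotes, and 825 and 1815 in those of knockouts. The Y-linked Uty read 54.2 and 72.7, then 15.0 and 140, then 96.1 and 120, Eif2s3y 41.5 and 102, then 21.6 and 167, then 134 and 132, and Kdm5d 9.7 and 12.8, then 30.0 and 17.0, then 21.5 and 14.0, all too dim to be tested. Heterozygote number 2 had the lowest Xist and the highest Uty and Eif2s3y signals of the 6 arrays, and heterozygote number 1 the lowest Uty and Eif2s3y but the highest Kdm5d signal. The sources used here do not give the sex of the pooled embryos.

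Further probe sets over 2-fold the same way in both numbers, beside those of the genes named above, were those of P2rx6, an ATP-gated channel (wild-type arrays 86.8 and 72.4, heterozygote arrays 328 and 280, knockout arrays 387 and 60.2), and Il15ra, a receptor for interleukin-15 (67.7 and 57.4, then 218 and 227, then 333 and 51.9). In both the knockout arrays lay far apart from each other. A probe set without a gene symbol read 228 and 262, then 79.4 and 102, then 47.4 and 295.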
